A study of Danio rerio with 2 samples.

Results

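The genes described here build the membrane and the cytoskeleton of lens fibre cells: 2 water channels (mipa and mipb), the connexin gja3, 3 copies of the lens membrane protein gene lim2 (lim2.1, lim2.4 and lim2.5) and 2 beaded filament genes (bfsp1 and bfsp2). They were matched to the table by gene symbol and make up 8 of the 31571 annotated genes in the table. Messenger RNA came from heads of AB strain zebrafish embryos at 33 hpf (hours post fertilisation), severed just anterior to the otic vesicle (the future inner ear). The wildtype group and the rbm24a-/- group, whose line carries an 8 bp deletion made with TALEN nucleases in the first exon of rbm24a, were represented by 1 library each. The labels speak of several independent samples, of which 1 per group is analysed here, name no treatment and do not say how many embryos or clutches went into a library. Without a second library per group no difference below was tested: every interval is a 95% exact interval of counting error alone, and says nothing of variation between embryos.

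Lens fibre cells stretch into long, tightly packed cells that lose their organelles, and the lens has no blood supply. Water and small solutes move through channels in the fibre membrane: MIP, also called aquaporin zero, passes water and takes part in cell adhesion, and connexins dock between neighbouring cells to form gap junctions. LIM2 is a membrane protein of the PMP22 family found in fibre cells. BFSP1 (filensin) and BFSP2 (phakinin) together form the beaded filament, an intermediate filament of lens fibre cells, and mutations of MIP, GJA3, LIM2 and the BFSP genes cause cataract in humans. Rbm24a binds RNA, and the title of the series concerns its part in crystallin accumulation and lens transparency.

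Not every copy could be told apart by name. No entry bears the name lim2.4 or lim2.5. The names table and the RefSeq table both hold 5 lim2 genes, of which lim2.1, lim2.2 and lim2.3 match by name, so the other two entries, both called LIM2 (ENSDARG00000015445 and ENSDARG00000041295), were taken by elimination as lim2.4 and lim2.5. The first spans 12581 bp in the table, 61 bp less than lim2.4 in the RefSeq table, and the span of the second (14641 bp) lies 1999 bp from lim2.4 and 2736 bp from lim2.5.

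Lens tissue was present in both libraries by its alpha and beta crystallins, which summed to 1946 CPM in wildtype and 341 CPM in mutant heads. The libraries held 14148577 counted reads (wildtype) and 16667612 (mutant). rbm24a itself (ENSDARG00000102995) had 224 wildtype and 121 mutant reads, or 15.8 and 7.26 CPM (reads per 1000000 counted reads of the library), and a deletion of this size need not remove the transcript. The names table calls 2 entries RBM24. This one, of 35150 bp, was taken as rbm24a because its span is the nearer to that of rbm24a in the RefSeq table (35948 bp), and the other (ENSDARG00000031809, 25399 bp) had 31 and 13 reads. Over the 18094 features averaging at least 1 CPM (called measured below), the median log2 ratio of mutant over wildtype, with 1 CPM added to both levels, was -0.0013, and the middle 50.0% of features lay between -0.22 and 0.22.

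Transcripts of the lens channels and beaded filaments were lower in the mutant library. Of the 8 genes 7 were measured, and 6 of them differed by 2-fold or more towards lower levels (a log2 ratio of -1 or less), against 2.82% of all measured features. None was higher by that margin, against 2.22% of all features. Of the lower genes, bfsp2 passed the filter only through the wildtype library (11.4 CPM, against 0.720 CPM in the mutant library). This can raise the count of lower genes. The exception among the measured genes was lim2.1, and the entry ENSDARG00000041295 had 0 reads in both libraries, which allows a wildtype level of up to 0.212 CPM and a mutant level of up to 0.180 CPM (3 reads each). The median log2 ratio of the 7 genes was -2.48, that of mipa. Summed over the 8 genes, wildtype heads had 421 CPM (interval 410 to 432) and mutant heads 87.8 CPM (interval 83.4 to 92.5), which is 4.79-fold less (interval 4.52 to 5.08). The RNA came from cut heads with all their tissues, so fewer fibre cells and less RNA per cell cannot be told apart.

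**Figure D1:**
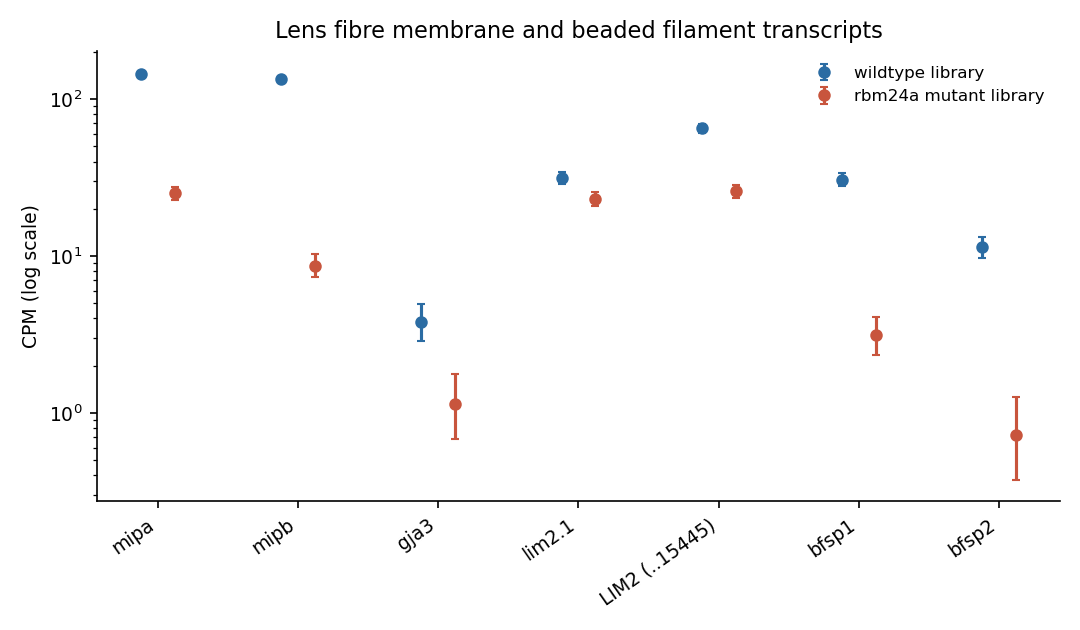
Level of each measured gene in the wildtype library (blue) and the rbm24a mutant library (red), as CPM on a log axis, with 95% Poisson intervals of the counts. The digits after 2 dots are the end of the Ensembl ID of the LIM2 entry. The intervals of the libraries are apart for all 7 genes, most widely for mipb, bfsp1 and bfsp2 and least for lim2.1.

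The water channel genes had the most reads of the 8 in the wildtype library. mipa (ENSDARG00000037285) had 2041 wildtype and 418 mutant reads, or 144 CPM (interval 138 to 151) and 25.1 CPM (interval 22.7 to 27.6). The mutant level was thus lower 5.75-fold (interval 5.17 to 6.41). mipb (ENSDARG00000013963) had a similar number of wildtype reads, 1897 or 134 CPM (interval 128 to 140), but 145 mutant reads or 8.70 CPM (interval 7.34 to 10.2). The copies were thus close in reads in wildtype heads and far apart in mutant heads. The fold of mipb, 15.4 (interval 13.0 to 18.4), was 2.68 times that of mipa (interval of this ratio 2.19 to 3.29), a comparison that does not depend on how the libraries are scaled. Of all 18094 measured features, 13 had a log2 ratio as low as that of mipb or lower, mipb included, and 58 one as low as that of mipa.

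The connexin gja3 (ENSDARG00000021889), a gap junction subunit of fibre cells, had few reads and was also lower. It had 54 wildtype reads (3.82 CPM, interval 2.87 to 4.98) and 19 mutant reads (1.14 CPM, interval 0.686 to 1.78), and its fold was 3.35 (interval 1.95 to 5.98). At these counts its fold could not be told apart from that of mipa (ratio of folds 0.582, interval 0.335 to 1.05) or from that of the LIM2 entry ENSDARG00000015445 (1.33, interval 0.762 to 2.4). With 5 CPM added in place of 1, its log2 ratio was -0.52, within 2-fold, and it was not measured at a mean of at least 5 CPM. Of all measured features 359 had a log2 ratio as low as that of gja3 (-1.17) or lower.

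lim2.1 had the smallest difference of the 7 measured genes. The LIM2 entry ENSDARG00000015445 had 924 wildtype reads (65.3 CPM, interval 61.2 to 69.7) and 431 mutant reads (25.9 CPM, interval 23.5 to 28.4), and its fold of wildtype over mutant was 2.53 (interval 2.25 to 2.84). lim2.1 (ENSDARG00000068974) had 445 and 387 reads, 31.5 CPM (interval 29 to 35) and 23.2 CPM (interval 21.0 to 25.7). This 1.35-fold difference (interval 1.18 to 1.56) was beyond counting error but under the 2-fold threshold, and 2362 measured features (13%) had a log2 ratio as low or lower. Between these copies the folds differed 1.86 times (interval 1.55 to 2.24). lim2.3, a copy outside the 8 genes, lay between them with 319 and 200 reads (1.88-fold lower, interval 1.57 to 2.25). lim2.2 had 6 wildtype and 10 mutant reads, too few to show a difference.

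Both beaded filament genes were near the lowest ratios. bfsp1 (ENSDARG00000074919) had 433 wildtype reads (30.6 CPM, interval 27.8 to 33.6) and 52 mutant reads (3.12 CPM, interval 2.33 to 4.09), a 9.81-fold difference (interval 7.35 to 13.3). For bfsp2 (ENSDARG00000011998) the reads were 161 and 12, or 11.4 CPM (interval 9.69 to 13.3) and 0.720 CPM (interval 0.372 to 1.26), a 15.8-fold difference (interval 8.80 to 31.2). The partners of the filament did not differ in fold beyond counting error (ratio of folds 1.61, interval 0.822 to 3.40), an interval that also holds ratios above 3. The fold of bfsp1 was 1.71 times that of mipa (interval 1.25 to 2.36), while mipb was 1.57 times above bfsp1 (interval 1.1 to 2.21) and could not be told apart from bfsp2 (0.975, interval 0.482 to 1.81).

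**Figure D2:**
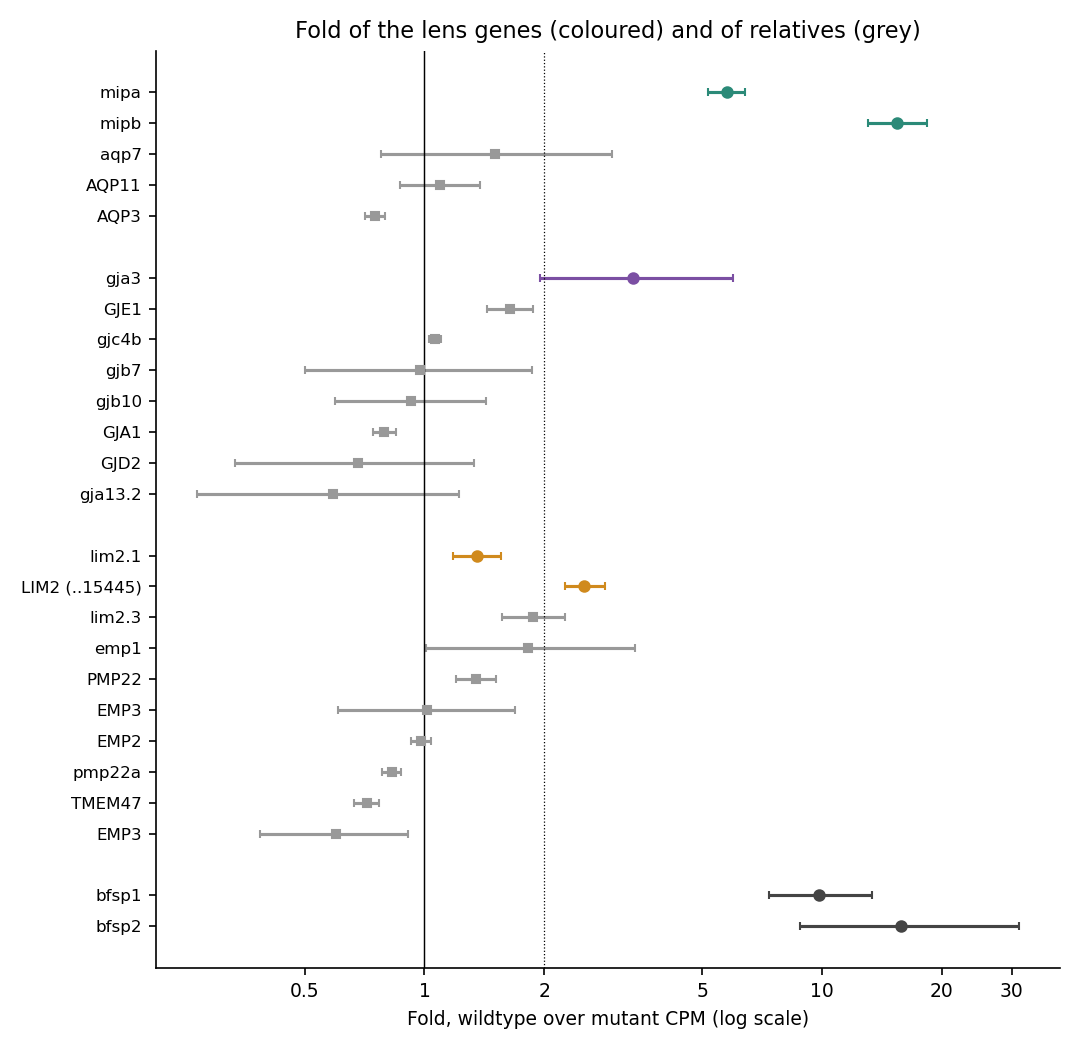
Fold of wildtype over mutant CPM on a log axis, with 95% exact intervals of counting error, for the measured lens genes (coloured circles). Grey squares are other measured aquaporins, connexins and PMP22 family genes, lim2.3 included. Other intermediate filament genes are not drawn. The solid line marks equal levels and the dotted line 2-fold. The circles of mipa, mipb, gja3, the LIM2 entry and the bfsp genes lie right of the dotted line and lim2.1 left of it, with every grey square also left of it.

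The make-up of the summed reads therefore differed between the libraries. The water channels held 66.1% of the reads of the 8 genes in the wildtype library (exact interval 64.9% to 67.3%) and 38.5% in the mutant library (interval 36% to 41.0%). The lim2 copies went from 23.0% (interval 21.9% to 24.1%) to 55.9% (interval 53.3% to 58.4%), and the beaded filament genes from 9.97% (interval 9.23% to 10.8%) to 4.37% (interval 3.38% to 5.55%). By RPKM, which takes length into account, the water channels held 47.9% of the summed level in wildtype and 19.9% in mutant heads, and the lim2 copies 46.4% and 78.3%. For gja3 the shares of reads were 0.907% (interval 0.682% to 1.18%) and 1.3% (interval 0.783% to 2.02%), which overlap. Summed by role, the fold was 10.9 for the beaded filament genes (interval 8.44 to 14.4), 8.24 for the water channels (interval 7.54 to 9.02) and 1.97 for the lim2 copies (interval 1.81 to 2.15). These sums do not stand for each gene. The folds of mipa (5.75), mipb (15.4), lim2.1 (1.35), the LIM2 entry (2.53) and bfsp2 (15.8) lie outside their role's interval. That of bfsp1 (9.81) lies inside. The summed interval of the lim2 copies lies apart from those of the other roles with more than 1 gene. The intervals of those roles overlap each other, which does not show that their folds are equal. The ratio of these summed folds was not computed.

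**Figure D3:**
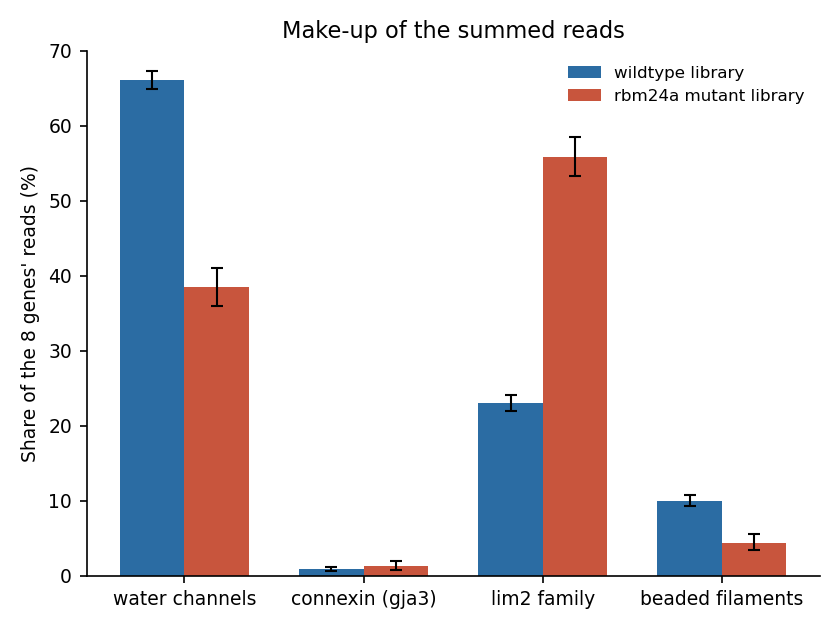
Share of the summed reads of the 8 genes held by each role in the wildtype (blue) and rbm24a mutant (red) library, in percent, with 95% exact binomial intervals. Water channels held 66.1% of the reads in wildtype and the lim2 copies 55.9% in the mutant library.

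Levels of different genes can be compared only per length, and the deposited RPKM values (reads scaled to length and library total) give such a scale. By RPKM the LIM2 entry ENSDARG00000015445 had the highest wildtype level of the 8 genes (54.4), followed by mipa (50.7), mipb (37.4) and lim2.1 (30.9). bfsp2 (5.46), bfsp1 (4.38) and gja3 (0.74) followed. In the mutant library the order of RPKM levels was led by lim2.1 (22.8) and the LIM2 entry (21.5), with mipa at 8.82 and mipb at 2.42. bfsp1 (0.45), bfsp2 (0.35) and gja3 (0.22) closed it. By RPKM mipb exceeded 92.2% of measured annotated genes in wildtype heads and 41.7% in mutant heads. For lim2.1 these shares were 90.5% and 87.4%. The length behind an RPKM is not described: for 3.22% of the 10867 annotated genes with at least 100 wildtype reads it was over 1% longer than the length in the table, so the order of near levels is uncertain.

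None of the measured relatives of the channels and of the filament outside the 8 genes was lower by 2-fold, against 2.82% of all measured features. At that share so few genes can hold none without differing from other features. Of 3 other measured aquaporins and 7 other connexins measured here none was higher by that margin either, with median log2 ratios of -0.12 and 0.09. AQP3 (ENSDARG00000003808), a water and glycerol channel of skin, had 1839 wildtype and 2883 mutant reads (1.33-fold higher in the mutant library, interval 1.25 to 1.41). aqp7 and AQP11 had 23 and 18, and 147 and 158 reads. GJA1, a connexin of many tissues, was 1.26-fold higher (interval 1.18 to 1.35), gja13.2 had 12 and 24 reads, and gjc4b, the connexin gene with the highest mean, was 1.06-fold lower (interval 1.02 to 1.1). The lowest of these connexins was GJE1 (ENSDARG00000054150), known in mouse for its part in the lens. It had 530 and 381 reads (1.64-fold lower, interval 1.43 to 1.87). The fold of gja3 was 2.04 times as large (interval 1.17 to 3.71). The second copy, gje1b, had 0 reads in both libraries.

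Among 8 measured members of the PMP22 family and lim2 copies outside the 8 genes, none passed 2-fold, and the median log2 ratio was 0.01. After lim2.3 the largest ratios were those of EMP3 (ENSDARG00000036428; 35 and 69 reads, log2 ratio 0.57) and emp1 (31 and 20 reads, -0.54), and pmp22a had the highest mean (150 and 181 CPM). Of 25 other measured intermediate filament genes none passed 2-fold either (median -0.07). Over all measured features 2.82% were lower and 2.22% higher, so these counts do not set either list apart. cyt1, a keratin of the skin, had the lowest ratio (-0.74), followed by nefma (-0.48) and krt18b (-0.44), and krt4, at 10187 and 11010 CPM, had 0.11.

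Genes of the membrane skeleton and of cell junctions, whose proteins work with these channels and filaments, were mostly within 2-fold (35 of 36 measured genes). The 1 lower gene (2.78%) is near the share of 2.82% over all measured features. The median log2 ratio was -0.12, with 27 of the 36 ratios below 0, against 50.2% of all measured features. The gene past 2-fold was epb41b, a membrane skeleton gene that is also in the red blood cell list, with 232 and 41 reads (6.67-fold lower, interval 4.77 to 9.53). TMOD4, a tropomodulin of muscle, had 59 and 34 reads (log2 ratio -0.77), and tjp3, a tight junction gene, 148 and 282 (0.64). calm3b, a calmodulin gene, had the highest mean (1352 and 1261 CPM) and a log2 ratio of -0.10. Calmodulin is known to regulate MIP.

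**Figure D4:**
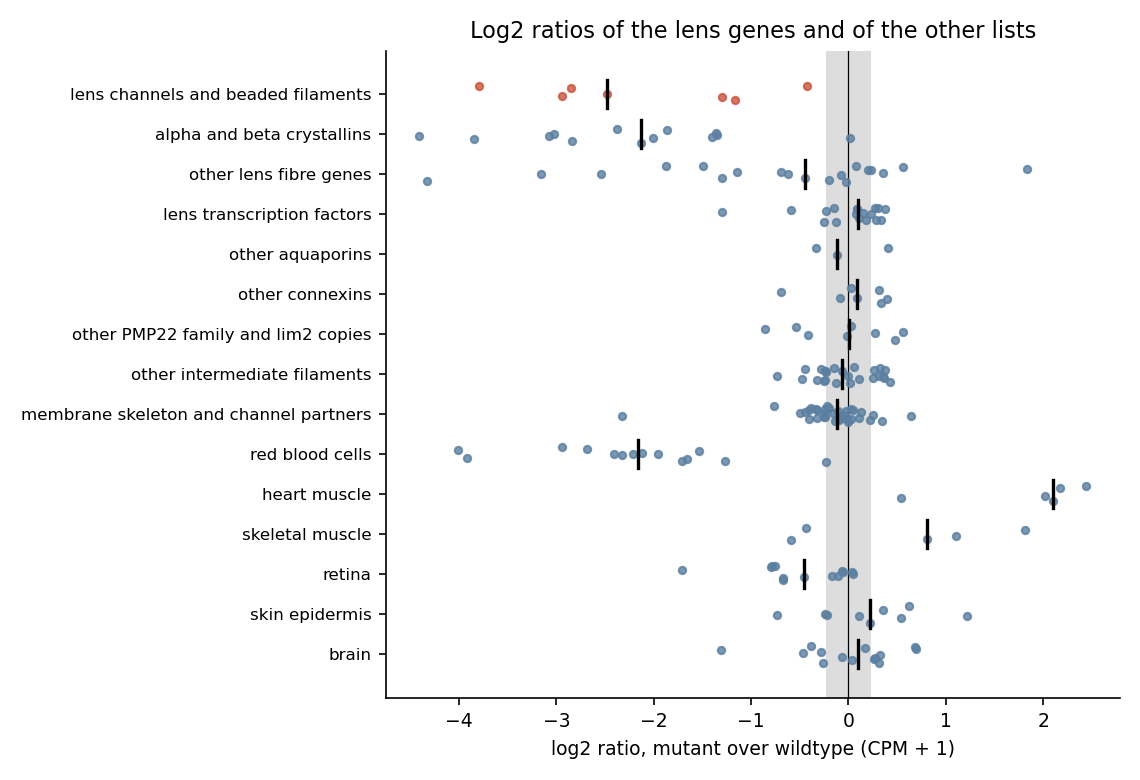
Log2 ratio of mutant over wildtype CPM, with 1 CPM added, for each measured gene (points, spread vertically at random) and the median (black bar) of the lens channel and beaded filament genes (red) and of the other lists (blue). The grey band holds the middle 50.0% of all measured features. The medians lie at -2.48 for the lens genes, -2.13 for the alpha and beta crystallins and -2.17 for the red blood cell genes. Those of the retina list and of the lens transcription factors lie at -0.46 and 0.10.

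Other lens transcripts gave a mixed picture. Of 13 measured alpha and beta crystallin genes, structural proteins of the lens, 12 were lower by at least 2-fold (median log2 ratio -2.13). In sum the crystallin reads were lower by a larger fold (5.71, interval 5.55 to 5.88): for every 100 crystallin reads the channel and filament genes had 21.6 reads in wildtype heads and 25.8 in mutant heads, and the ratio of their folds was 0.839 (interval 0.787 to 0.895). Within the lens transcription factor list 1 of 18 measured genes was lower by at least 2-fold (HSF4, 29 and 4 reads), and none was with 5 CPM added, with a mean of at least 5 CPM or by RPKM. The summed reads of that list differed from those of the channel and filament genes by a ratio of folds of 5.09 (interval 4.78 to 5.42). These factors are also active in brain, retina and other head tissue, so their lens level is not known. Of 19 measured genes in the list of other fibre genes, 7 were lower and 1 higher by at least 2-fold, against 2.82% and 2.22% of all measured features. Some lower ones (HSF4, prx and an LCTL entry at 0 mutant reads) passed the filter mainly through the wildtype library, which raises this count. CAPN3, a calpain protease, had 799 and 31 reads, and the LCTL genes had 138 and 14 (ENSDARG00000016337) and 112 and 0 reads (ENSDARG00000036139). SPARC, a matrix protein gene made in many tissues, had the highest mean of that list and a log2 ratio of 0.23. The further lower genes, named after their values were seen, were GRIFIN (97 and 19 reads), TDRD7 (64 and 25), prx (33 and 3) and HSF4. HSF4 is in both this list and that of the lens transcription factors, so the counts of these lists share it. BIRC7, an inhibitor of apoptosis and also named afterwards, was the higher one, with 65 wildtype and 315 mutant reads.

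Red blood cell and heart muscle markers also differed between the same libraries. Over all measured features 2.82% were lower and 2.22% higher by at least 2-fold, and the retina, skin and brain lists had 1 such gene each. Of 14 measured red blood cell genes, none at 0 reads in either library, 13 were lower by at least 2-fold. The summed level of the red blood cell genes was 1461 CPM in wildtype heads and 317 CPM in mutant heads. This 4.6-fold difference (interval 4.47 to 4.75) was close to the 4.79-fold difference of the lens genes (ratio of folds 1.04, interval 0.975 to 1.11). The lens sum rests largely on mipa and mipb: its fold was 2.64 without them and 3.25 by RPKM. Heart muscle genes summed to 3.04 and 26.9 CPM over 13 entries, of which 6 were at 0 in wildtype and 3 in mutant heads. Of the 5 measured ones 4 were higher. With 43 wildtype and 449 mutant reads in all, heart genes passed the filter mainly through the mutant library, so that count adds nothing to the sums. Skeletal muscle genes summed to 11.2 and 14.8 CPM over 12 entries, 3 at 0 in wildtype and 2 in mutant heads. Of 5 measured ones 2 were higher, a count to which the same limit of the filter applies. Of 13 measured retina genes 1 was lower (502 and 383 CPM summed), of 9 skin genes 1 was higher (12095 and 13013 CPM), and of 14 brain genes 1 was lower (2515 and 2135 CPM), with none at 0 in these 3 lists. The retina list was lower as a whole: 11 of its 13 ratios were below 0, against 50.2% of all measured features. Its summed fold was 1.31 (interval 1.27 to 1.36). Its median log2 ratio was -0.46, against 0.22 for skin, 0.10 for brain and -0.0013 over all measured features. The part of these tissues, or of where the heads were cut, in the values of the lens genes was not tested.

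**Figure D5:**
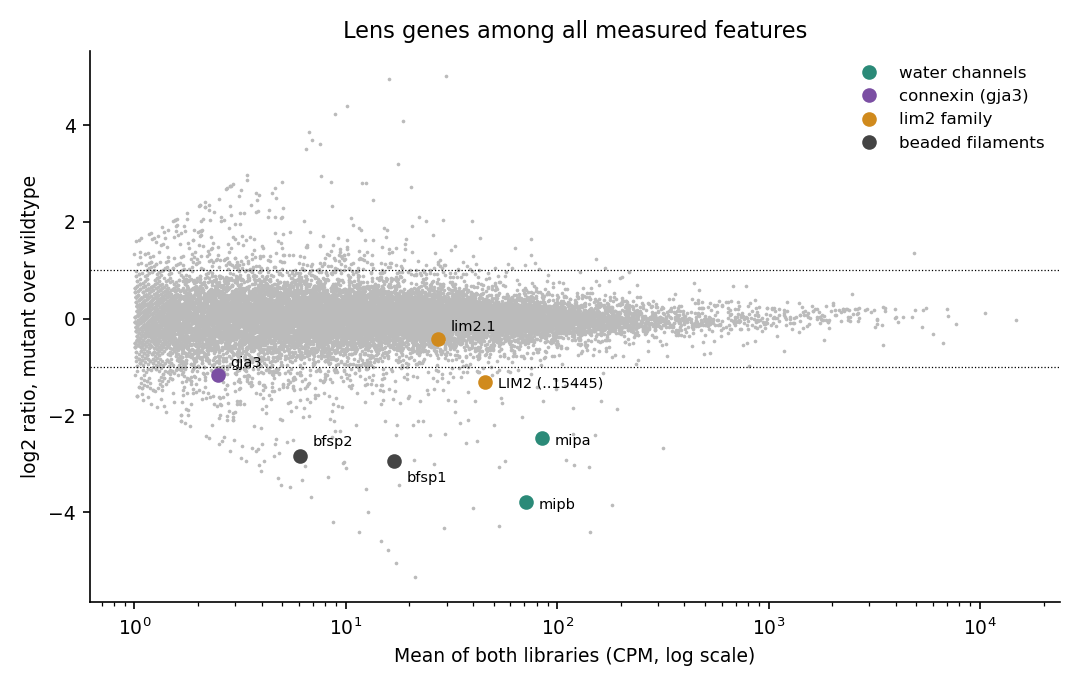
Log2 ratio of mutant over wildtype CPM, with 1 CPM added, against the mean level of both libraries (log axis) for all 18094 measured features (grey), with the lens genes coloured by role. Dotted lines mark 2-fold. The lens genes cover mean levels from 2.48 CPM (gja3) to 84.7 CPM (mipa). Most lie at the lower edge of the cloud, with lim2.1 and gja3 inside it.

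The genes whose ratio was most like that of mipb included crystallins, globins and heat shock genes. Over 8912 annotated genes with a proper symbol and a mean of at least 10 CPM, mipb took place 8 from the lowest log2 ratio (-3.80). The 4 genes next below it were the heat shock gene hsp70.3 (-4.29), the globins hbae1.1 (-4.01) and hbae1.3 (-3.92), and crybb1 (-3.85), a beta-crystallin. Next above it were the heat shock gene HSPA2 (-3.53), dnph1 (-3.45), and the crystallins cryba1b (-3.08) and cryba4 (-3.03). With 2 libraries this likeness rests on a single ratio per gene, and globin and hsp70 genes have near-identical copies that may share reads.

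Genes that lie next to the 8 genes on the chromosome, by the order of protein-coding genes in the RefSeq table, were within 2-fold where they could be measured. Of 16 neighbours, 11 were found by a unique name and 8 of those were measured. All 8 lay within 2-fold, with log2 ratios between -0.37 (KLHL18, beside bfsp2) and 0.30 (stat6, beside mipa) and a median of -0.15. Most features did too, as 2.82% of all measured features were lower and 2.22% higher by 2-fold. The neighbour of mipb was RBM38, an RNA-binding gene related to rbm24a, with 232 wildtype and 288 mutant reads (1.05-fold higher in the mutant library, interval 0.883 to 1.26). PCSK2, beside bfsp1, had 101 and 94 reads, and ZMYM2, beside gja3, 1908 and 2012.

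Of the 8 genes, mipa and mipb appear in the authors' deposited table of significant genes. There the fold of wildtype over mutant is 5.62 for mipa and 15.1 for mipb. The authors' deposited table lists 37 genes, none with a wildtype FPKM below 21.6. By RPKM the LIM2 entry and lim2.1 lie above that level in the wildtype library and are not in the authors' deposited table, and gja3, bfsp1 and bfsp2 lie below it. The comparison behind it sets 1 library against 1, so its p-values are not printed.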

How the data were processed

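Heads of 33 hpf zebrafish embryos were sequenced as 100 bp paired reads, 1 library per genotype, per the labels' protocols. The submitters' processing notes name the build GRCz11 and the tools HISAT2 2.0.1, HTSeq 0.6.1, DESeq2, cutadapt and bcl2fastq 2.17.1.14. What each tool did, the annotation used and whether counting was stranded is not given in the sources used here, so a gene overlapped by another or by an antisense transcript may hold some of its reads.

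The authors deposited raw read counts per feature and their RPKM values for 51544 features. A second table, the authors' own comparison, gives counts, FPKM, size-factor-scaled counts (a normalised signal), the fold and its log2 as wildtype over mutant, and p-values, all as deposited. Its counts for 37 genes equal those of the first table in all 37, and 2 of its columns, whose names show no sample, were not used.

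The genes, the gene lists and the rules were chosen with earlier results of these data known. Of 10 genes chosen, 2 are not reported here, nor is 1 relative, and every sum, count and median is over the 8 that are. Counts were divided by the column sum and given as CPM. Log2 ratios are of mutant over wildtype with 1 CPM added, which understates differences of low genes, over features averaging at least 1 CPM. A gene was called lower or higher at a log2 ratio of -1 or 1. With 1 library per group no test was possible. Levels carry exact Poisson intervals, folds and shares exact binomial (Clopper-Pearson) intervals and ratios of folds conditional exact intervals (15 comparisons, not adjusted). All are at 95% and for counting error only. Reads without molecular identifiers are not independent molecules, so these intervals may be too narrow even for that error. For 0 reads the limit is 3 reads per library. The ratio calls were checked on counts simulated with known folds and counting error alone. Such counts hold no variation between embryos, so this check says nothing of it. Beside the 8 genes, the text names lim2 and gje1 copies outside them, the 4 genes either side of mipb, and rbm24a. It also names, for each family or partner list and the fibre list, the 3 largest absolute log2 ratios and the highest mean. By RefSeq gene order (assembly GRCz12tu) it names 1 neighbour on each side of a gene. RefSeq also gave the number of lim2 genes, gene spans and connexin synonyms. Promoter and protein sequences were not used here. Python 3.11.15, numpy 2.4.6, pandas 2.3.3, scipy 1.17.1 and matplotlib 3.10.9 were used.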

Additional observations from a re-analysis of the deposited data

How the results depend on the processing

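Each of the 7 measured genes had a log2 ratio below 0 under every setting that kept it (the filter at 5 CPM and RPKM leave out gja3). Its fold stayed within its counting interval under the 4 other scalings (28 of 28 values). That outcome was fixed in advance: each scaling shifts the folds of single genes by the same small factor. In the RPKM fold of a gene, length cancels apart from rounding. With 5 CPM added in place of 1, 5 of 7 genes passed 2-fold, gja3 no longer (-0.52), and their median log2 ratio was -1.52. With a mean of at least 5 CPM, 5 of 6 passed (median -2.66), and without a filter 6 of 8 (median -1.89, since the entry at 0 reads enters at 0). With RPKM in place of CPM, 5 of 6 passed (median -2.08) and the summed fold was 3.25 in place of 4.79. Without mipa and mipb, an alternative chosen after seeing the data, the summed fold was 2.64. The share of all features called lower moved with these settings, from 511 (2.82%) to 164 (0.906%) with 5 CPM added, 243 (1.93%) with the higher filter and 279 (1.94%) with RPKM. The other lens fibre genes called lower were then 3, 2 and 3 in place of 7. No paired analysis was possible because there is 1 library per genotype. Depth limits gja3 most, at 54 wildtype reads. Whether any difference would recur in other embryos cannot be told from 1 library per group.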
